A study of Homo sapiens with 4 samples.

Results

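The E2F and DP transcription factors were followed as 10 genes, E2F1 to E2F8, TFDP1 and TFDP2, taken from the count tables by their current NCBI symbol out of 23459 listed genes. All 10 were listed and all 10 passed the filter on low counts, a level above 1 CPM (count scaled to library size) in at least 2 libraries, which retained 12559 genes. TFDP3, the remaining DP gene of the genome, is not among them and had 0 counts in each of the 4 libraries. The cells were hTERT RPE-1, a wild type human line from retinal pigment epithelium made permanent with telomerase, so every culture comes from 1 immortalized line. All groups shared 48 h of serum starvation in medium with 0.1% FBS, which stops the cells in G0/G1, and then 200 μM merbarone, a drug that blocks the catalytic cycle of type II topoisomerases. There were 2 libraries after 4 h of the drug and 2 after 8 h. Untreated cells were not analysed here, so a difference between 8 h and 4 h cannot be told apart from the longer stay in low serum, and in bulk RNA fewer cells that express a gene cannot be told apart from less RNA per cell.

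E2F proteins decide whether genes of DNA synthesis and of the cell cycle are read. E2F1, E2F2 and E2F3 activate such genes, E2F4 and E2F5 mostly repress them together with pocket proteins (RB1, RBL1 and RBL2), E2F6 represses without pocket proteins as part of a Polycomb complex, and E2F7 and E2F8 are atypical repressors. E2F1 to E2F6 bind DNA as dimers with a DP protein, the product of TFDP1 or TFDP2, while E2F7 and E2F8 carry a tandem pair of DNA-binding domains and need no DP partner. Several of these genes, E2F1, E2F2, E2F7 and E2F8 among them, are known E2F targets themselves, and E2F7 is also a known target of p53.

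The promoters are shown first because members that moved in opposite directions hold the same letters there. Windows of 250 bases before to 50 bases after each annotated start were taken from RefSeq (GRCh38.p14), and 8 of the 10 members had at least 1 window that was used, 11 windows in all. E2F5 and E2F8 were not searched. The letters searched for E2F, on both strands, were TTCCCGC or TTCGCGC, and also TTGCCGC or else TTGGCGC. The 180 bases just before the start are printed 5′ to 3′ on the strand of the gene, with these letters or their reverse complement in capitals, for E2F1 (chr20:33686386-33686565, minus strand), E2F2 (chr1:23531234-23531413, minus strand), the first of the 2 starts of E2F3 (chr6:20401699-20401878, plus strand) and E2F7 (chr12:77065570-77065749, minus strand).
E2F1: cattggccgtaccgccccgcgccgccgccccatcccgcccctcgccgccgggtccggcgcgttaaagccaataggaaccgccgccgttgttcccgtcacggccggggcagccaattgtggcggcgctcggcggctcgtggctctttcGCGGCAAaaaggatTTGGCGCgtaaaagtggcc
E2F2: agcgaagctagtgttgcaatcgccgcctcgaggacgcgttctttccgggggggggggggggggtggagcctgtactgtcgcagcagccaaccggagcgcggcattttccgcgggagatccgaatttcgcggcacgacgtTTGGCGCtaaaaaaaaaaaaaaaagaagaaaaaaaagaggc
E2F3: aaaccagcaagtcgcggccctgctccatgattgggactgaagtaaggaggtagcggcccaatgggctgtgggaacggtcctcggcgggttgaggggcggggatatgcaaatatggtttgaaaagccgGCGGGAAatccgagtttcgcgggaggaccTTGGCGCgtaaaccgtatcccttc
E2F7: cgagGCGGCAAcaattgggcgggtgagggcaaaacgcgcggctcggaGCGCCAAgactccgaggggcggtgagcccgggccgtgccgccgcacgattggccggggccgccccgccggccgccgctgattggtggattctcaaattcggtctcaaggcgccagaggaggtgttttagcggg
The forward letters TTGGCGC lay 19 to 13 bases before the start of E2F1, 41 to 35 before that of E2F2 and 24 to 18 before the first start of E2F3. In E2F7 the same letters stood on the reverse strand, 133 to 127 bases before the start, with a further match at 176 to 170. At least 1 E2F match was present in 6 of the 11 windows, which belong to 6 members (E2F1, E2F2, E2F3, E2F6, E2F7 and TFDP1). Of all 35116 windows in the reference 12.97% held one, and of the 14859 windows of retained genes 19.0% did. These shares were not matched for GC content. It was 58.3% to 79.7% in the 6 windows with a match and 35.3% to 77.3% in the others. In E2F6 the match lay after the start, and the windows of E2F4 and TFDP2 and the second start of E2F3, from which the short form E2F3b is made, held none. The CHR letters TTTGAA or TTCGAA, an element of cell cycle genes, were found in 3 of the 11 windows, against 11.9% for retained genes. These were windows of E2F3 (start 1, 58.3% GC) and of TFDP2 alone (start 2, 43.0% GC, and start 3, 35.3% GC). The CCAAT box was found in 4 of the 11 windows, against 34.8% for retained genes. A match describes letters only and is not a measured binding site.

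**Figure D1:**
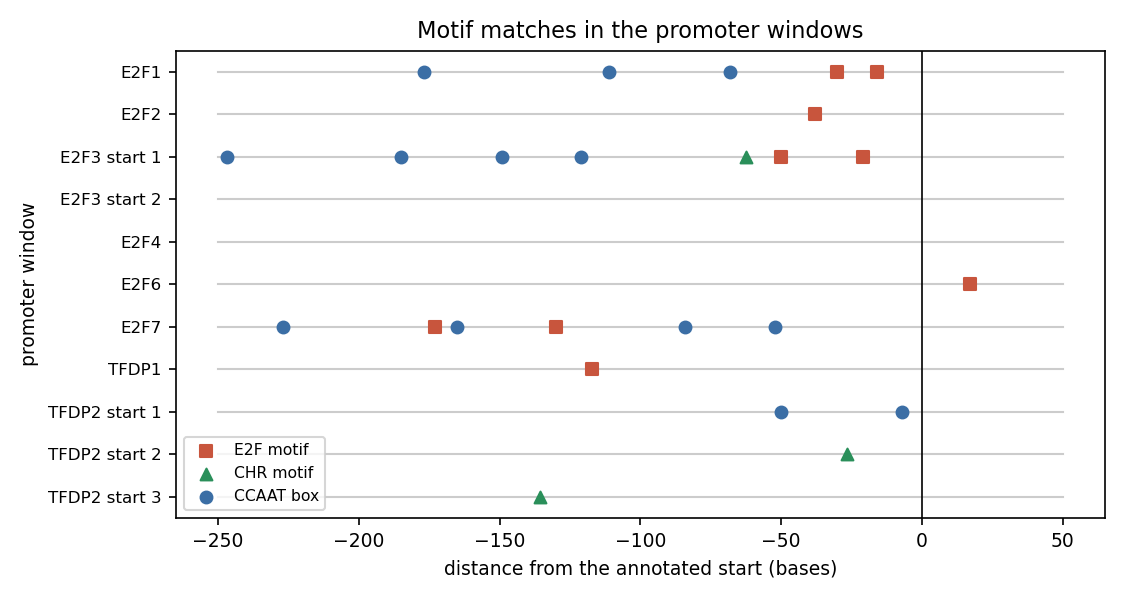
Position of each motif match in the 11 RefSeq promoter windows of 8 members, with the distance from the annotated start in bases on the horizontal axis and 1 window per line. E2F matches stand close to the start in E2F1, E2F2 and the first start of E2F3, and farther upstream in E2F7 and TFDP1.

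Depth ranged from 8064450 to 10324697 counts per library. Replicates were separate libraries, since their counts differed by 2.67 (4 h) and 3.84 (8 h) in chi-square per degree of freedom, where sampling alone gives about 1. Of 10 markers of retinal pigment epithelium, 4 were retained (RDH5, PMEL, MITF and OTX2), with a summed level of 105 to 117 CPM over the 4 libraries, while RPE65, BEST1, RLBP1, LRAT and TTR were near 0 and TYR had no count. The markers of simple epithelium, KRT8 and KRT18, summed to 711 and 770.5 CPM at 4 h and 574 and 616 CPM at 8 h. None of 6 markers of blood, endothelium, other epithelia, photoreceptors or liver was retained, and their sum was between 0.88 and 1.24 CPM.

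From 4 h to 8 h the family split. With edgeR's quasi-likelihood test over all retained genes, E2F2, E2F8, TFDP1, TFDP2 and E2F4 were lower at 8 h and E2F7, E2F3 and E2F5 were higher at a Benjamini-Hochberg adjusted p below 0.05. That is 5 members lower and 3 higher of 10, against a background of 18.8% of all retained genes lower and 19.9% higher. With the added condition of an absolute log2 fold change (log2FC) above 1, which makes a differentially expressed gene (DEG), there were 2 lower members (E2F2 and E2F8) and 1 higher (E2F5), against 3.88% and 1.45% of retained genes. E2F1 and E2F6 did not pass. In normalized counts the 8 h libraries of 6 members lay below both 4 h libraries and those of 4 members lay above, so no member overlapped between the times, where 34.9% of retained genes were separated downward and 34.8% upward.

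**Figure D2:**
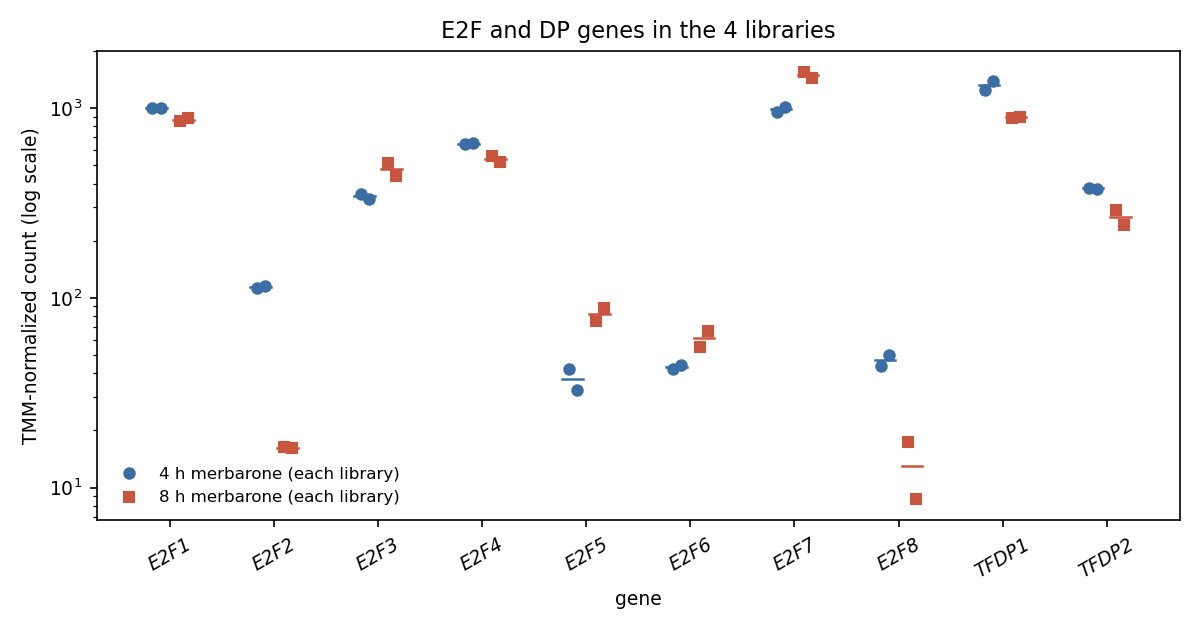
TMM-normalized count of each member (vertical axis, log scale) in each of the 2 libraries at 4 h (circles) and 8 h (squares), with short lines for the means. E2F2 goes from 113 and 116 to 16.4 and 16.2, E2F7 rises above 1430, and the 2 times do not overlap for any gene.

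Among the activators, E2F2 changed most. E2F2 (chromosome 1, 23832930 to 23857725, minus strand, hg19 as for the other genes) had 126 and 128 counts at 4 h and 16 and 13 at 8 h, or 113 and 116 against 16.4 and 16.2 TMM-normalized counts. Both 8 h libraries held about the same low level, and no library at 4 h came near it. The level at 8 h was 14.3% of that at 4 h (log2FC −2.81, standard error 0.26, 95% interval −3.35 to −2.26, edgeR adjusted p = 1.19e-07). Only 6 of the 12559 retained genes had a lower log2FC. The letters TTGGCGC, the only E2F match in the E2F2 window, are also present in those of E2F1 and E2F3, which hold further matches.

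E2F1 (chromosome 20, 32263283 to 32274191, minus strand), which drives entry into S phase, stood at 998 and 996 normalized counts at 4 h and at 849.9 and 887 at 8 h. The 8 h libraries were lower without overlap, but the difference was small, with a log2FC of −0.20 (standard error 0.08, 95% interval −0.38 to −0.02), and did not pass (edgeR adjusted p = 0.0683). It passed with the replicate number as a block (adjusted p = 0.0453), with scaling by library size alone (adjusted p = 0.0071) and with the trend of change with mean expression removed (adjusted p = 0.00962). E2F3 (chromosome 6, 20402110 to 20493945, plus strand) had 352 and 333 normalized counts at 4 h and 511 and 437 at 8 h, so both later libraries were higher. It rose 1.39-fold (log2FC 0.47, standard error 0.11, 95% interval 0.24 to 0.71, edgeR adjusted p = 0.00237). The counts are per gene and pool the long form E2F3a, made from the first start, with the short form E2F3b. The 3 activators therefore differed from each other. The log2FC of E2F1 exceeded that of E2F2 by 2.61 (95% interval 2.03 to 3.18) and that of E2F3 exceeded that of E2F2 by 3.28 (2.69 to 3.87), while E2F1 lay below E2F3 by a difference of −0.67 (−0.97 to −0.38).

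E2F4 and E2F5, the partners of the pocket proteins in resting cells, moved apart. E2F4 (chromosome 16, 67226058 to 67232821, plus strand) had 645 and 650.0 normalized counts at 4 h and 555 and 518 at 8 h. It was lower by a log2FC of −0.27 (standard error 0.10, 95% interval −0.47 to −0.07, edgeR adjusted p = 0.0317). This call was lost without replicate 1 of 4 h (adjusted p = 0.123), replicate 2 of 4 h (0.153) or replicate 2 of 8 h (0.11), and with DESeq2 (0.124). E2F5 (chromosome 8, 86089389 to 86129387, plus strand) is a weakly expressed member, with 47 and 36 counts at 4 h and 74 and 71 at 8 h. In normalized counts it went from 42.2 and 32.6 to 75.7 and 88.2, with both later libraries above both earlier ones. It rose 2.18-fold (log2FC 1.12, standard error 0.24, 95% interval 0.62 to 1.62, edgeR adjusted p = 0.00106), and 135 retained genes had a higher log2FC. Without replicate 2 of 4 h the log2FC was 0.95, below the DEG threshold. A long non-coding RNA without a gene symbol, on the opposite strand, overlaps exons of E2F5. The counts were searched by symbol, so whether they hold this RNA is not known. Exons of RBIS, also on the opposite strand, cover 24.0% of the bases of the E2F5 transcript. Whether the counting used strand is not given in the sources used here. RBIS had 96.9 and 108 normalized counts at 4 h and 128 and 103 at 8 h (log2FC 0.18, 95% interval −0.21 to 0.57, edgeR adjusted p = 0.471), and was named for this overlap after its values were seen. The difference between E2F5 and E2F4 in log2FC was 1.39 (95% interval 0.85 to 1.93).

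E2F6 (chromosome 2, 11584501 to 11606303, minus strand) was near the lower end of the family, with 47 and 49 counts at 4 h and 54 in both libraries at 8 h. Its normalized counts went from 42.2 and 44.4 to 55.2 and 67.1, higher in both later libraries. The log2FC of 0.49 had a 95% interval from −0.02 to 1.00 and did not pass (standard error 0.24, edgeR adjusted p = 0.121), so a change was not detectable at this depth, while the interval reaches a log2FC of 1.00. It passed only with the expression trend removed (adjusted p = 0.0396).

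The atypical members went in opposite directions. E2F7 (chromosome 12, 77415028 to 77459349, minus strand) was already abundant at 4 h, with 955 and 1009.9 normalized counts, and reached 1545 and 1430.1 at 8 h. The times were far apart compared with the replicates. E2F7 rose 1.52-fold (log2FC 0.60, standard error 0.08, 95% interval 0.43 to 0.77, edgeR adjusted p = 1.53e-05), below the DEG threshold of a log2FC of 1. E2F8 (chromosome 11, 19245610 to 19263167, minus strand) had 49 and 55 counts at 4 h and 17 and 7 at 8 h. In normalized counts these were 43.97 and 49.9 against 17.4 and 8.70, so the 8 h replicates were low but differed between themselves. E2F8 fell to 28.8% of its 4 h level (log2FC −1.80, standard error 0.35, 95% interval −2.53 to −1.07, edgeR adjusted p = 0.000464), and 57 retained genes had a lower log2FC. CSRP3-AS1, a long non-coding RNA on the opposite strand, overlaps E2F8 and was not listed in the counts. Without replicate 1 of 8 h the log2FC was −2.41 and without replicate 2 of 8 h it was −1.43. The log2FC of E2F7 exceeded that of E2F8 by 2.40 (95% interval 1.65 to 3.15).

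Both DP genes were lower at 8 h, with log2FC estimates close to each other. TFDP1 (chromosome 13, 114239036 to 114295788, plus strand), the more abundant DP gene, had 1251 and 1382 normalized counts at 4 h and 889.8 and 892 at 8 h. It fell to 67.7% (log2FC −0.56, standard error 0.09, 95% interval −0.74 to −0.38, edgeR adjusted p = 4.01e-05). TFDP2 (chromosome 3, 141663270 to 141868386, minus strand) went from 380.5 and 374 to 291 and 241 normalized counts, and fell to 70.9% (log2FC −0.50, standard error 0.12, 95% interval −0.75 to −0.24, edgeR adjusted p = 0.00332). In each gene both later libraries were below both earlier ones. The difference between the DP genes in log2FC was −0.07, with a 95% interval from −0.38 to 0.24, which includes 0 but does not show that they changed alike.

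**Figure D3:**
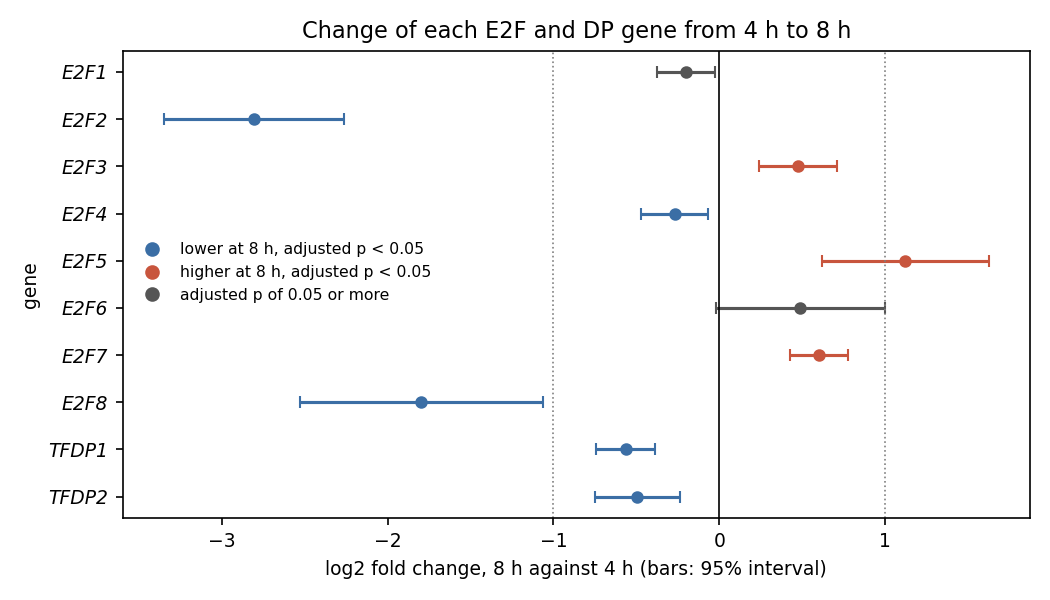
Log2 fold change of each member from 4 h to 8 h (horizontal axis) with its 95% interval from the edgeR fit, and dotted lines at −1 and 1. E2F2 and E2F8 lie left of −1, TFDP1 and TFDP2 share nearly the same place near −0.5, and E2F3, E2F5 and E2F7 lie right of 0.

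Levels of different genes were compared per length, as normalized counts divided by the kb of the Ensembl canonical transcript. At 4 h the order of mean levels per kb was TFDP1 (499), E2F1 (371), E2F4 (307), E2F7 (172), E2F3 (68.0), TFDP2 (38.2), E2F2 (22.05), E2F5 (19.0), E2F6 (13.4) and E2F8 (12.7). Neighbours in this order did not overlap between libraries, except E2F6 and E2F8. At 8 h TFDP1 (338) and E2F1 (323) still led, followed by E2F7 (259.9), E2F4 (254), E2F3 (94.2), E2F5 (41.7), TFDP2 (26.9), E2F6 (18.9), E2F8 (3.52) and E2F2 (3.13). Here E2F7 overlapped with E2F4, and E2F8 with E2F2. These levels leave out reads that cross a splice junction, since mapping with Bowtie makes no gaps. For a 75-base read such positions are 8.67% of the transcript of E2F2 and TFDP2 and 31.3% of that of TFDP1, so levels of genes with short exons are set too low by more. Reads with more than 1 position in the genome were also dropped. Within single exons, 9.78% of the 75-base windows of E2F6, 8.45% of those of TFDP1 and 0.95% of those of E2F3 matched a named pseudogene of the same gene with up to 2 mismatches, and 0 windows of E2F4 did.

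Per kb, the summed level of the 8 E2F genes was 982 and 987 normalized counts at 4 h and 1014 and 983 at 8 h, with overlap between the times. Without division by length the sum was 3191 and 3232 against 3627 and 3453, higher at 8 h without overlap. Its make-up shifted. E2F7 and E2F8 together held 18.2% and 19.2% of the sum at 4 h and 27.1% and 25.6% at 8 h, with E2F7 at 13.1 times the level of E2F8 or more in every library. The activators E2F1 to E2F3 went from 47.1% and 46.5% to 41.5% and 42.7%, and E2F4 with E2F5 from 33.3% and 32.9% to 29.8% and 29.5%. E2F6 held between 1.33% and 2.11% in every library. For each of these classes the 8 h libraries lay on one side of the 4 h libraries. E2F7 stood at 0.45 and 0.48 times the level of E2F1 per kb at 4 h and at 0.85 and 0.76 times at 8 h. The summed level of TFDP1 and TFDP2 per kb went from 513 and 561 to 367 and 362, with TFDP1 between 11.4 and 13.9 times the level of TFDP2 in all 4 libraries. Without division by length it was between 3.05 and 3.70 times. The per kb ratio rests on canonical transcripts of 2.64 kb for TFDP1 and 9.88 kb for TFDP2. Which transcript form these cells made was not determined.

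**Figure D4:**
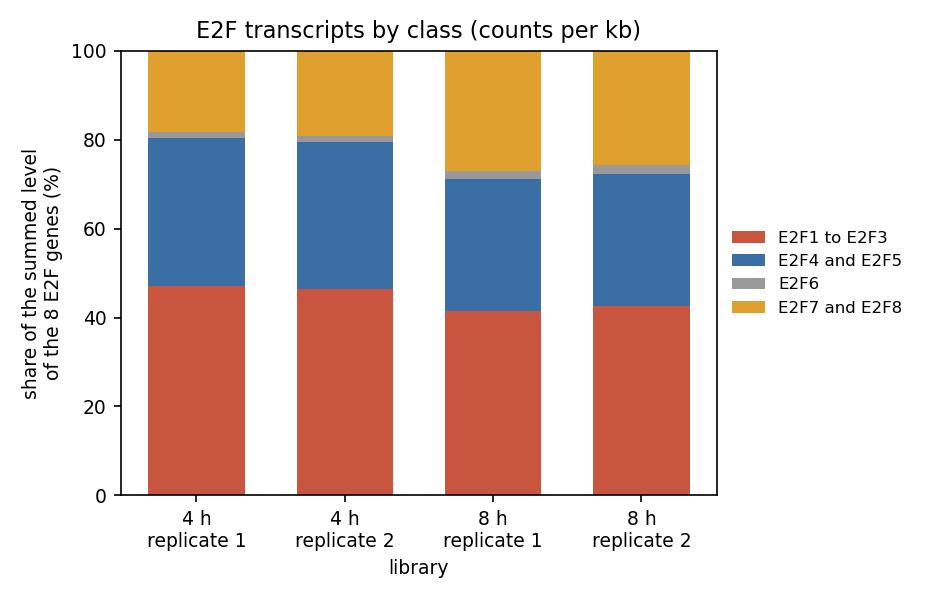
Share of each E2F class in the summed level of the 8 E2F genes (vertical axis, percent of normalized counts per kb) in each of the 4 libraries. The band of E2F7 and E2F8 at the top grows from 18.2% and 19.2% at 4 h to 27.1% and 25.6% at 8 h.

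The genes around the E2F factors were described by lists. Of the pocket proteins, RBL1, which encodes p107 and is an E2F target itself, had 221 and 181 normalized counts at 4 h and 66.5 and 94.4 at 8 h, and fell (log2FC −1.34, standard error 0.19, edgeR adjusted p = 2.16e-05). RB1, the retinoblastoma gene, had 834 and 706 normalized counts at 4 h and 594 and 639.9 at 8 h, and fell by less (log2FC −0.32, standard error 0.10, edgeR adjusted p = 0.0157), a call lost without replicate 1 of 4 h and with DESeq2, where the adjusted p reached 0.261. RBL2, which encodes p130, the pocket protein of resting cells, had 1011 and 1005 against 939 and 892 and did not pass (log2FC −0.14, edgeR adjusted p = 0.204). RBL2 passed as lower with scaling by library size alone and with the expression trend removed.

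Pocket proteins are released from E2F by cyclin-dependent kinases (CDKs). Of 10 G1 cyclins and kinases, all retained, 5 were lower and 3 higher, where 18.8% of all retained genes were lower and 19.9% higher, and the median log2FC was −0.36 against −0.002 for all retained genes. CCNE2, a cyclin E gene, went from 69.1 and 68.0 normalized counts to 8.18 and 13.7, the steepest fall of the list (log2FC −2.67, edgeR adjusted p = 3.83e-06), and CCNA2 (−1.35), CDK2 (−1.06), CDC25A and CCND1 were lower as well. CDC25A lost its call under 3 of 12 alternatives (DESeq2, expression trend removed, without replicate 2 of 4 h), where the adjusted p reached 0.342. CDK6 (log2FC 1.03), CCND2 (1.38) and CDK4 (0.25) were higher. CCND2 rested on 20 and 24 counts at 4 h, and the call of CDK4 was lost under 4 of 12 alternatives, among them those without replicate 1 of 4 h or replicate 1 of 8 h. CCNE1 and CCND3 did not pass. Of the 7 CDK inhibitors, 3 were lower and 3 were higher, against the same 18.8% and 19.9% of all retained genes, with a median log2FC of 0.44. CDKN1C, with 10 and 11 counts at 4 h and 13 and 25 at 8 h, did not pass (log2FC 1.17, edgeR adjusted p = 0.0543). Its log2FC lay between 0.48 and 1.70 under the alternatives, and it passed with the replicate block, with the expression trend removed and without replicate 1 of 8 h. CDKN1A, which encodes p21 and is a target of p53, was by far the most abundant of these, with 36830.1 and 34018 normalized counts at 4 h and 61310 and 63568 at 8 h, and rose (log2FC 0.82, standard error 0.06, edgeR adjusted p = 1.21e-08). CDKN1B (log2FC 0.72) and CDKN2A (0.44) were also higher, and CDKN2C (−1.17), CDKN2B (−0.78) and CDKN2D (−0.52) were lower. CDKN2D lost its call with DESeq2 and without replicate 2 of 4 h.

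Of 44 G1/S genes known as E2F targets, all retained and among them RBL1, CCNE1, CCNE2, CCNA2 and CDC25A of the lists above, 41 were lower and 0 higher at an adjusted p below 0.05 in the edgeR test, where 18.8% of all retained genes were lower, and 23 were DEGs, where 3.88% were. At an unadjusted p below 0.05 the number higher was also 0, and it was 0 with Limma-Voom and DESeq2. With 1 library left out, 36 to 39 were lower. The median log2FC was −1.03, with a range from −2.67 to 0.29. The list was chosen with earlier results of these data known, so its contrast with all retained genes is not an independent result. Apart from CCNE2, the steepest were MCM10, a replication initiation factor, which went from 225 and 230.3 normalized counts to 70.6 and 69.6 (log2FC −1.70), and GINS3, of the replicative helicase, which went from 228 and 267 to 92.0 and 63.4 (log2FC −1.65). CCNE1, MSH6 and DUT did not pass. In the same libraries, of the activators, E2F2 fell, E2F3 rose (log2FC 0.47) and E2F1 differed by a log2FC of −0.20. Of the repressors, E2F4 and E2F8 were lower, E2F5 and E2F7 were higher and E2F6 did not pass. A link between these changes and the targets was not tested. Levels of E2F proteins were not measured.

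MuvB is the protein core that joins E2F4 and p130 in the DREAM repressor and joins MYBL2 and FOXM1 when mitotic genes are read. In this list of 8 genes, 4 were lower, 1 was higher and 3 (LIN37, LIN52 and LIN54) did not pass, against 18.8% of all retained genes lower and 19.9% higher. The median log2FC was −0.25. MYBL2, known as an E2F target, had 849 and 904 normalized counts at 4 h and 479 and 492 at 8 h and fell (log2FC −0.85, standard error 0.09, edgeR adjusted p = 8.7e-07). FOXM1 had 2710.1 and 2882 against 2155 and 2043 and fell by less (log2FC −0.41, standard error 0.08, edgeR adjusted p = 0.000289). LIN9 (−0.75) and RBBP4 (−0.66) were lower, and MYBL1 (0.30) was higher. LIN9 lost its call under 5 of 12 alternatives, among them those without either 4 h library or without replicate 2 of 8 h. MYBL1 lost its call under 4, among them that without replicate 2 of 4 h.

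Around E2F6, 4 of 10 genes of its Polycomb complex were lower, 1 was higher and 5 (MGA, PCGF6, RNF2, RYBP and YAF2) did not pass, where 18.8% of all retained genes were lower and 19.9% higher. The median log2FC was −0.10. At an unadjusted p below 0.05 in the edgeR test, 4 were lower and 4 higher. MGA, RNF2 and YAF2 passed as higher with the expression trend removed, and YAF2 also with the replicate block. L3MBTL2 (log2FC −0.79), WDR5 (−0.56) and CBX3 (−0.48) had the largest falls, RING1 was lower too (a call lost with DESeq2 and without replicate 2 of 4 h or of 8 h, where the adjusted p reached 0.399), and MAX, the partner of MGA in this complex, was higher (0.25), but lost its call under 5 of 12 alternatives, among them those without either 4 h library. CBX3 lost its call without replicate 1 of 4 h. STAG3, SMC1B and SLC25A31, germline genes that E2F6 is known to keep silent, were not retained. SMC1B and SLC25A31 had no count in any library and STAG3 had 1 count in 1 library.

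**Figure D5:**
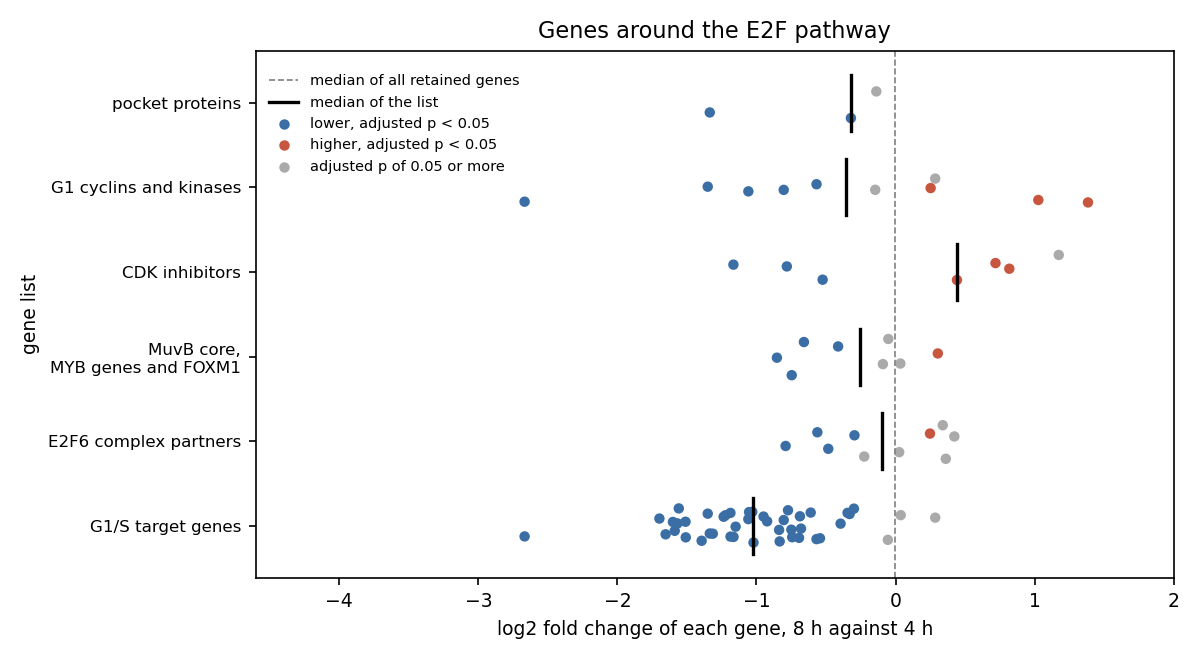
Log2 fold change from 4 h to 8 h of each retained gene of 6 lists around the E2F pathway (horizontal axis), with 1 point per gene, a black bar for the median of the list and a dashed line for the median of all retained genes. The G1/S target genes lie almost wholly left of 0 with a median of −1.03, while the CDK inhibitors and the G1 cyclins and kinases spread to both sides.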

How the data were processed

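Raw counts per gene were used for 4 libraries, 2 at 4 h and 2 at 8 h of merbarone. To make the deposited counts, the authors mapped 75-base single reads of TruSeq Stranded mRNA libraries to hg19 with Bowtie (version 1.2.0 in the submitters' processing notes, which also list deepTools 2.4.1), keeping reads with a single genomic position. The annotation, the counting tool and its strand setting are not given in the sources used here. Counts were neither normalized nor pooled, and depth ran from 8064450 to 10324697.

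Genes with CPM above 1 in at least 2 libraries were tested with edgeR 4.0.16 (R 4.3.3, TMM, quasi-likelihood, time as the only term), with Benjamini-Hochberg adjustment over all of them. A DEG had an adjusted p below 0.05 and an absolute log2FC above 1, the thresholds of the study, which used Limma-Voom. A standard error is the log2FC divided by the square root of F. Differences between members treat their estimates as independent. Alternatives were Limma-Voom (limma 3.58.1), DESeq2 1.42.0, other scalings and filters, a replicate block, removal of the trend with mean log2-CPM, and leaving out each library. The study calls the libraries of 1 time biological replicates (biological coefficient of variation 6.52%). Whether libraries of the same number were paired is not stated. Exact permutation of 2 libraries against 2 cannot go below p = 0.333. The tests were tried on simulated data. Of the 23459 genes, 23308 had a symbol. Symbols came from RefSeq, hg19 positions and transcript lengths from GENCODE 44 lifted to GRCh37. Besides members, the text names all pocket proteins, CDKN1A, MYBL2, FOXM1 and, of each list, up to 3 genes called in each direction with the largest change and no overlap. Outside this rule, and after their values were seen, CDC25A, CCND1, RING1 and the genes of each list that did not pass are named to complete small counts, and RBIS for its overlap with E2F5. Members and lists were chosen with earlier results of these data known.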

Additional observations from a re-analysis of the deposited data

How the results depend on the processing

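No member changed direction under any of the 12 alternatives. E2F2, E2F3, E2F5, E2F7, E2F8, TFDP1 and TFDP2 were called in each, while E2F4, E2F1 and E2F6 changed sides as given above. The number of members called, 8 as reported, lay between 7 and 10, and the number that were DEGs was 3 except without replicate 2 of 4 h, when E2F5 was not one and it was 2. Over all genes, 4867 were called as reported and between 3114 and 4828 with 1 library left out, the fewest without replicate 1 (3114) or replicate 2 (3141) of 4 h, where the lone 4 h library is assumed to vary like the pair at 8 h. DESeq2 on all 4 libraries called 3303 genes, 1503 lower and 1800 higher, and 507 were DEGs in place of 669. The shares of all retained genes given beside the counts above are those of the edgeR test. With library size alone, the median log2FC of all genes was −0.11, and 3289 genes were lower and 1698 higher in place of 2367 and 2500. With the trend with mean log2-CPM removed, the DEGs were 344 lower and 260 higher in place of 487 and 182. The G1/S targets called lower were 41 as reported and between 36 and 41 otherwise. With the replicate block 9 members were called, E2F1 being the one added, and 5493 genes in all. The correlation of same-numbered deviations over all retained genes was 0.05. Counting noise lowers such a value, so it cannot settle whether libraries of the same number shared a culture or batch. Without division by length, the share of E2F7 and E2F8 was 32.05% at 4 h and 42.4% at 8 h. Among the members, the counts of E2F2 and E2F8 at 8 h were the lowest.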

Other observations

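For each member the retained genes with the most similar profile were looked up, by the distance between log2-CPM values over the 4 libraries after each profile was centred on its own mean, among 9363 genes outside the family whose normalized count averaged 100 or more. E2F2, E2F5, E2F6 and E2F8 themselves averaged below 100, so genes with counts as low as theirs were not searched. For E2F2 the nearest were BUB1B at 0.54, KIF20A and NDC80, both at 0.65, and 0 genes lay within 0.25. For E2F8 they were NUF2 at 0.13 and GINS3 at 0.26, with 1 gene within 0.25. For E2F5 they were SLC6A15 at 0.07, LIN7C and ZFP36, both at 0.08, with 32 genes within 0.25. The profiles of the other members were common. E2F7 had TNFRSF14, TMBIM1 and KLHL21 at 0.01 to 0.02 and 843 genes within 0.25, and E2F1 had CRNKL1, ECPAS and RIPK1 at about 0.01 and 2568 genes within 0.25. With 4 libraries such a distance describes little more than the size of the change between the times.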
